A study of Mus musculus with 6 samples.

Results

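Car4, Bcl11a, Vrtn, Tek, Rnf213, Dnajc6, Slc13a5 and Kbtbd8 are 8 genes whose arrays with an siRNA against Lin28a stood apart from the control arrays. They were chosen by their measured log2 values, because those of siLin28a stood apart, among genes outside the lists of pluripotency factors. All 8 were found among the 19938 genes that have a row of their own on the array. They cover 9 of the 23410 rows (probe sets) that name a gene, because Rnf213 has 2 rows, and no row names a member together with another gene. Since the arrays with the Lin28a siRNA and the control arrays chose the members, their differences between these groups are a description and carry no test.

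The study measured messenger RNA in A3-1, a line of mouse embryonic stem (ES) cells, on 6 Affymetrix arrays, in 3 groups of 2. The cells of siLin28a replicate 1 and 2 received an siRNA against Lin28a for 48 h, and those of siGFP replicate 1 and 2 an siRNA against green fluorescent protein, a control target, for 48 h. The untreated replicates 1 and 2 had no siRNA. All cells grew in serum with LIF, the cytokine under which mouse ES cells self-renew, and no genotype other than that of the line is given. Each siRNA group received 1 siRNA sequence in 1 cell line, and nothing states that replicate arrays stem from separate cultures, so the spread between them may be technical.

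Values are log2 expression after RMA, a procedure of background correction, quantile normalization and summary over the probes of a set. They are deposited in steps of 0.1, and a log2 difference of 1.00 is a doubling. The number of arrays limits the precision. Pearson's r between arrays, across rows that are not independent replicates, was between 0.991 and 0.995, and at most 18.7% of rows held the same value in a pair of arrays. Lin28a, the siRNA target, had 7.4 and 7.4 in siLin28a replicate 1 and 2, against 9.1 and 9.4 in siGFP and 9.1 and 9.4 in untreated cells. The 14 ES cell markers had a mean level of at least 8.60 each, with Dppa5a the brightest at 12.48, so the labelled cell type had its defining transcripts. In bulk RNA, fewer cells of a type and less RNA per cell cannot be told apart.

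LIN28A is an RNA-binding protein of early embryonic cells that keeps let-7 microRNA precursors from maturing and also binds many messenger RNAs. When it is lowered, mature let-7 can accumulate and repress its target messenger RNAs. The transcripts described here belong to several cell functions rather than to a single pathway. Car4 and Slc13a5 encode proteins that handle ions and metabolites at the cell membrane. Tek encodes a receptor, Bcl11a and Vrtn encode nuclear proteins of development, Dnajc6 acts in vesicle traffic, and Rnf213 and Kbtbd8 act in protein ubiquitination.

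The reagent on which the comparisons of siLin28a rest is a duplex of 19 paired bases a strand, to which the labels add a 2-base overhang of deoxythymidine. The second strand is the reverse complement of the first. Both strands are shown 5′ to 3′, with bases 2 to 8, the part of an siRNA strand that can pair with other transcripts as a seed, in capitals.
siLin28a strand 1: gCAGAAGCgaagauccaaa
siLin28a strand 2: uUUGGAUCuucgcuucugc

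Promoter sequences are shown for 5 members: Car4, Bcl11a and Vrtn, the members that stood farthest above the controls, and Rnf213 and Kbtbd8, members that were lowest with siLin28a and intermediate with siGFP. They are the 250 bases before a RefSeq gene start (GRCm38.p6). All 8 members matched the RefSeq promoter table, 5 of them with 1 start, and the first listed start is shown for Vrtn. Capitals mark matches to any of the 7 motifs named after the sequences, on either strand.
Car4 (chr11:84957504-84957753, plus strand): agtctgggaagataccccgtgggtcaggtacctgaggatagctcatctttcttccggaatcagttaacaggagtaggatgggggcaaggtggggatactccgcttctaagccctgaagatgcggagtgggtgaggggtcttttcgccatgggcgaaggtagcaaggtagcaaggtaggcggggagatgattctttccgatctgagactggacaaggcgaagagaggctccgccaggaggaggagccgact
Bcl11a (chr11:24080445-24080694, plus strand): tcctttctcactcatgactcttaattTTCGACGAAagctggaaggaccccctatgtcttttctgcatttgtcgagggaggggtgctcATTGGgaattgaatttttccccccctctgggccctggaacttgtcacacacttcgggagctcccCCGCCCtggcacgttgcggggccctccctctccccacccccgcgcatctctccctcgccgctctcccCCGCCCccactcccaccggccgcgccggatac
Vrtn (chr12:84640769-84641018, plus strand): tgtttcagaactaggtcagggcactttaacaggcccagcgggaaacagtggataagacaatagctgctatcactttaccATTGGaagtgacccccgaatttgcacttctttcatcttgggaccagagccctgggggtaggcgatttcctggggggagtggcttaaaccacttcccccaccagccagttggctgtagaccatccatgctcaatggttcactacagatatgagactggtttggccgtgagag
Rnf213 (chr11:119389849-119390098, plus strand): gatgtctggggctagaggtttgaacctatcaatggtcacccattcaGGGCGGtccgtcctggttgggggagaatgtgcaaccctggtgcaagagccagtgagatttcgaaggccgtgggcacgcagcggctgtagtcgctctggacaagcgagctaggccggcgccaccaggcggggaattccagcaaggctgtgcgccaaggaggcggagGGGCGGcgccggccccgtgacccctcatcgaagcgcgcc
Kbtbd8 (chr6:95117630-95117879, plus strand): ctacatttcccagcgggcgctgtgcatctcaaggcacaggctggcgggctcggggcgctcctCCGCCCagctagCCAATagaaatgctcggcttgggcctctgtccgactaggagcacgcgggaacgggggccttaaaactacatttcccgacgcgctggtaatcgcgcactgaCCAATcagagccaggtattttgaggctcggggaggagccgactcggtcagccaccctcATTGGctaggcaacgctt

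The motifs searched on both strands of the 250 bases were the TATA box (TATAAA), the CCAAT box (CCAAT), the GC box (GGGCGG), the E-box (CACGTG), a TCF/LEF motif (CTTTGAT), the octamer (ATGCAAAT) and a STAT motif (TTCNNNGAA). Overlapping matches of different motifs were counted for each of them. At least 1 start of Bcl11a, Kbtbd8, Slc13a5 and Vrtn, 4 members, held a CCAAT box, against 33.8% of 32851 promoters in the table. A GC box was found for 5 members, Bcl11a, Dnajc6, Kbtbd8, Rnf213 and Slc13a5, against 32.7% of promoters. The STAT motif was found for 1 member, Bcl11a, against 7.02% of promoters. The TATA box, E-box, TCF/LEF motif and octamer were found for 0 members, and 12.4%, 6.02%, 3.21% and 1.60% of promoters hold them. Members with several starts have more sequence to match than a single promoter, and a match in these letters is a description, not a binding site. The shown promoters differed in their number of CpG dinucleotides, with 11 in Car4, 16 in Bcl11a, 4 in Vrtn, 20 in Rnf213 and 20 in Kbtbd8, where the median promoter has 6. The Tek promoter, not shown, had 2.

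Among the 4 members that were higher with siLin28a, Car4, Bcl11a and Vrtn lay about 2-fold above siGFP and Tek above it by a smaller factor. Car4, a carbonic anhydrase anchored to the outer cell surface that interconverts carbon dioxide and bicarbonate, had 6.9 and 7.1 in siLin28a replicate 1 and 2, against 6.0 and 5.8 in siGFP and 6.0 and 6.0 in untreated cells. The siLin28a arrays were the highest, and the siGFP and untreated arrays overlapped. The log2 difference from siGFP was 1.10 (SE 0.135, n = 2 per group), a 2.14-fold higher level, and that from untreated cells was 1.00. Bcl11a, a zinc finger repressor that acts in lymphoid, neural and red blood cell development, had 6.6 and 6.8 with siLin28a, against 5.6 and 5.7 with siGFP and 5.7 and 5.5 untreated. Here too the control groups overlapped and both siLin28a arrays lay above them. The log2 difference was 1.05 (SE 0.138) against siGFP and 1.10 against untreated cells.

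Vrtn encodes vertnin, which is known in pigs for variants associated with the number of vertebrae. It had 6.1 and 6.4 in siLin28a replicate 1 and 2, against 5.2 and 5.2 in siGFP and 5.0 and 4.7 in untreated cells. The order of its groups was untreated, siGFP, siLin28a, with no overlap between them. The log2 difference was 1.05 (SE 0.162) against siGFP and 1.40 (SE 0.162) against untreated cells, which was 2.64-fold higher. Its levels of 4.7 to 5.2 in the controls were near the median of all rows on these arrays, 5.2 to 5.3.

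Tek, or TIE2, is the receptor tyrosine kinase for angiopoietins and is best known from endothelial cells. It had 7.2 and 7.1 with siLin28a, against 6.8 and 6.6 with siGFP and 6.1 and 6.0 untreated. The 3 groups did not overlap, and the larger part of the difference from untreated cells was already present with the control siRNA. The log2 difference of siLin28a was 0.45 (SE 0.129) against siGFP and 1.10 (SE 0.129) against untreated cells, and that of siGFP against untreated cells was 0.65 (SE 0.129).

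Among the 4 members that were lower with siLin28a, Rnf213 was measured by 2 rows. Rnf213 encodes a giant E3 ubiquitin ligase with an ATPase motor, known in humans for variants that predispose to moyamoya disease of brain arteries. The row 10383214 had 6.9 and 7.1 in siLin28a replicate 1 and 2, against 7.8 and 7.8 in siGFP and 7.9 and 7.9 in untreated cells. The row 10383233 had 7.5 and 7.5 with siLin28a, against 8.2 and 8.2 with siGFP and 8.5 and 8.4 untreated. The 2 rows put the groups in the same order, siLin28a lowest and untreated highest, with no overlap. In the row 10383214, however, siGFP and untreated cells lay only 0.1 apart, the step of the deposited values. Their log2 differences were −0.80 (SE 0.123) and −0.70 (SE 0.112) against siGFP, and −0.90 and −0.95 against untreated cells.

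Kbtbd8, an adaptor through which the CUL3 ubiquitin ligase binds substrates, is known from human ES cells for its part in neural crest specification. It had 6.9 and 7.0 with siLin28a, against 7.6 and 7.6 with siGFP and 8.1 and 7.8 untreated. As for Rnf213, the siGFP arrays lay between the other groups. The log2 difference was −0.65 (SE 0.141) against siGFP and −1.0 (SE 0.141) against untreated cells, a 2-fold lower level.

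Dnajc6 and Slc13a5 had another order of groups, with siGFP highest, untreated cells between and siLin28a lowest. Dnajc6, or auxilin, is the J-domain cochaperone that helps HSC70 strip clathrin from vesicles. It had 7.3 and 7.3 in siLin28a replicate 1 and 2, against 8.1 and 8.0 in siGFP and 7.8 and 7.7 in untreated cells. Its log2 difference was −0.75 (SE 0.116) against siGFP and −0.45 (SE 0.116) against untreated cells. Slc13a5, a sodium-coupled citrate transporter of the plasma membrane, had 6.5 and 6.6 with siLin28a, against 7.4 and 7.5 with siGFP and 6.9 and 7.2 untreated. Its log2 difference was −0.90 (SE 0.144) against siGFP and −0.50 (SE 0.144) against untreated cells. For both genes the choice of the control group therefore sets the size of the difference.

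**Figure D1:**
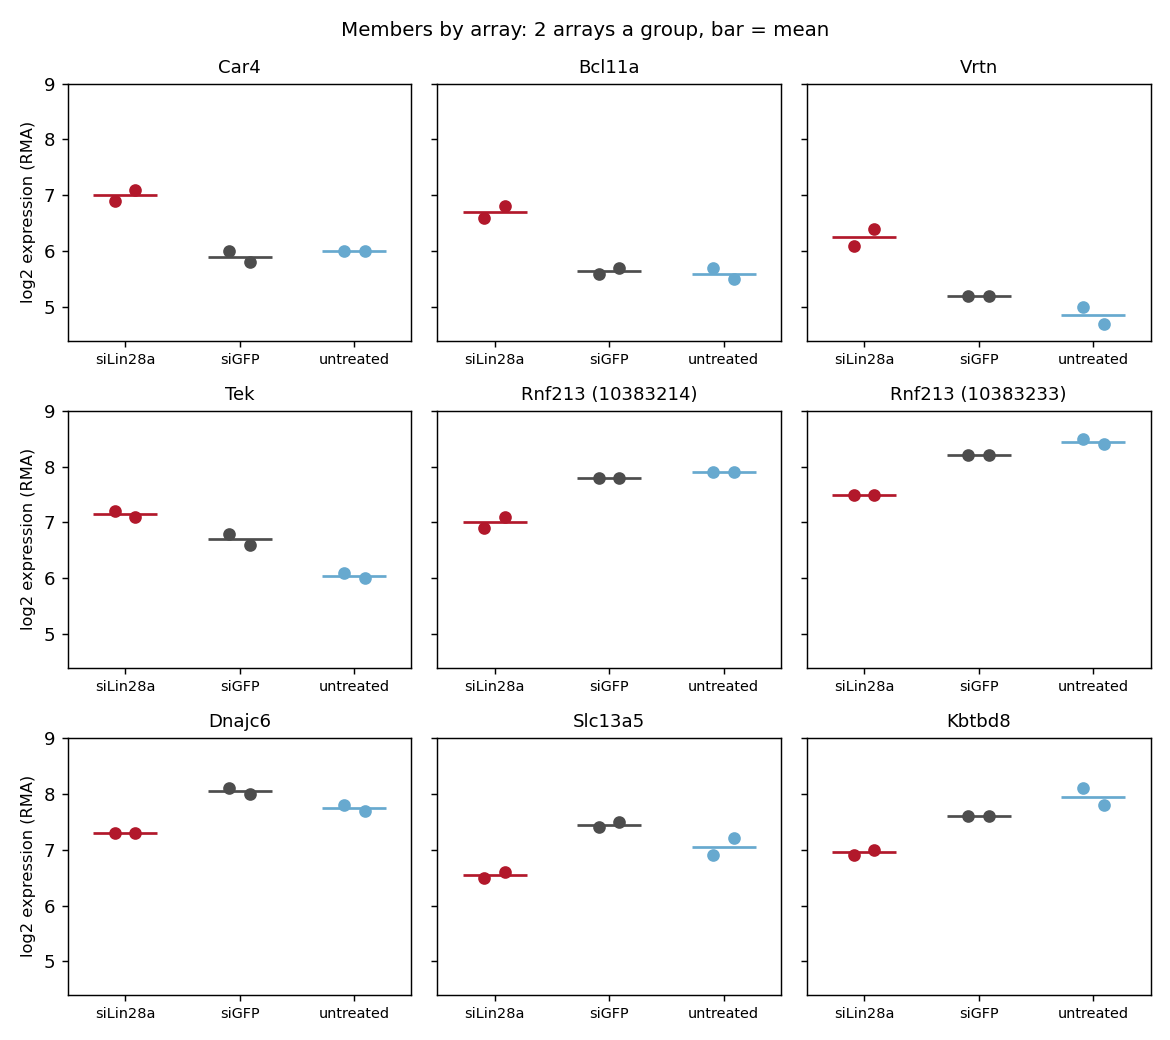
Log2 expression (RMA) of the 9 rows of the 8 genes in each of the 6 arrays, with siLin28a, siGFP and untreated from left to right, points for arrays and bars for the means of 2. The siLin28a arrays are highest for Car4, Bcl11a, Vrtn and Tek and lowest in the other panels, and the siGFP arrays sit between the other groups for Vrtn, Tek, Rnf213 and Kbtbd8.

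How strongly the members stood out was read against all rows. Both siLin28a arrays lay above all 4 control arrays in 4 member rows and in 3.64% of the 23410 rows, and below all 4 in 5 member rows and in 5.03% of rows. These shares moved with the scaling: 42.0% of such rows were the higher ones, against 57.9% when the arrays were quantile normalized again, 54.0% after cyclic loess, 34.4% after a shift of the arrays to 1 median and 19.4% without rows of a mean under 6. The gap between the siLin28a arrays and the nearest control array was 0.9 for Car4, Bcl11a and Vrtn, a size reached by 10 rows (0.0427%). It was 0.7 for each Rnf213 row, 0.6 for Kbtbd8, 0.4 for Dnajc6 and 0.3 for Tek and Slc13a5. A gap of at least 0.5 was found in 6 member rows and in 0.196% of all rows, and one of at least 0.3 in 1.01% of rows. The rule that chose the members states no threshold, and it used these same arrays, so nothing is read from these counts.

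The members were not equally extreme. Ranked by the size of the log2 difference between siLin28a and siGFP, with ties at the same place, Car4 came at place 15, Bcl11a and Vrtn place 16, Slc13a5 place 26, Rnf213 places 42 and 72, Dnajc6 place 53 and Kbtbd8 place 106. Tek came at place 513, so that its label as a strongest responder did not hold against siGFP. Against untreated cells Vrtn came at place 11, Tek and Bcl11a place 28, Car4 and Kbtbd8 place 46, and Rnf213 places 79 and 58. Slc13a5 and Dnajc6 came at places 693 and 968 there. A log2 difference of at least 1 from siGFP was reached by 3 member rows and, over all rows, by 0.0555% upward and 0.0299% downward. From untreated cells it was reached by 5 member rows, and over all rows by 0.128% upward and 0.115% downward.

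**Figure D2:**
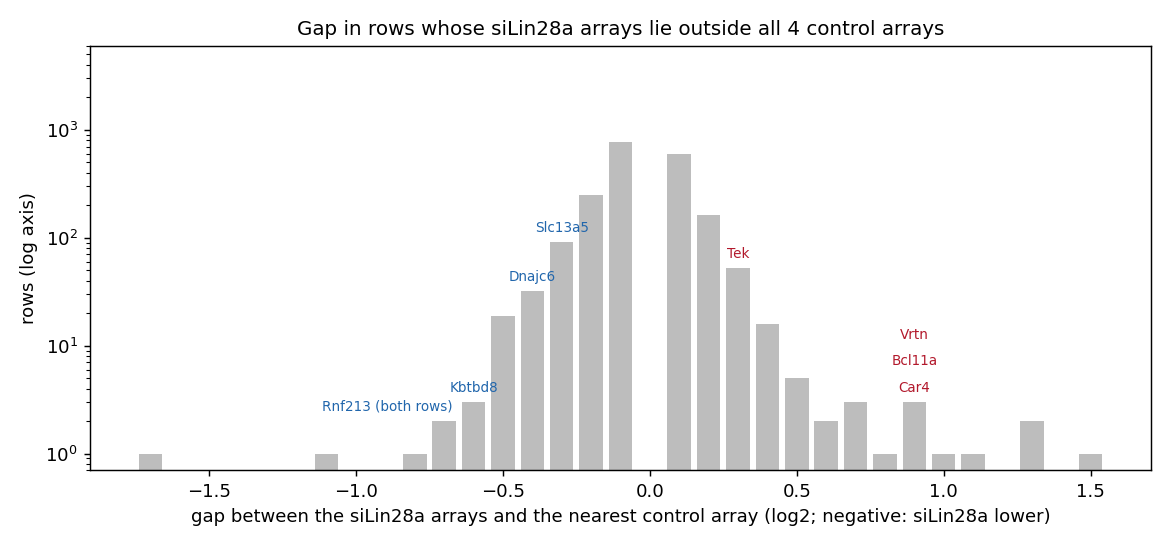
Number of rows (log axis) by the gap in log2 expression between the siLin28a arrays and the nearest of the 4 control arrays, for the 2031 rows whose siLin28a arrays lie outside all controls, with the bars that hold the members labelled. Car4, Bcl11a and Vrtn sit at a gap of 0.9, while Tek and Slc13a5 sit at 0.3 among many other rows.

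Over all rows none passed an adjusted p of 0.05 by limma in either comparison of siLin28a (0.0% of 23410 rows in each direction). The smallest adjusted p was 0.512 against siGFP and 0.171 against untreated cells, and an unadjusted p under 0.05 was found in 949 and 1508 rows. Least squares without the shared prior also called 0 rows in both. The pooled spread between arrays of a group was small in several members. It was 0.041 in the Rnf213 row 10383233, a value that 2.98% of rows did not exceed, and 0.058 in Dnajc6, which 7.84% did not exceed. It was largest in Vrtn, at 0.173, and 59.1% of rows had no more. A choice of rows whose groups stand apart favours such small spreads.

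The comparison of siGFP with untreated cells asks what accompanied the delivery of a control siRNA. The rule did not name this contrast, but it used the same control arrays, so the test is not independent of the choice. Its spread is pooled over all arrays, those of siLin28a included, and the choice favours rows of small spread. The unadjusted p-values of the members are therefore shaped by the choice. Both siGFP arrays lay above both untreated arrays for Vrtn, Tek, Dnajc6 and Slc13a5, 4 member rows against 9.22% of all rows. They lay below for both Rnf213 rows and Kbtbd8, 3 member rows against 8.46% of all rows, and they overlapped for Car4 and Bcl11a. None of the 9 rows passed by limma: the adjusted p was 0.961 for each, over 23410 rows of which 0.0% passed. The unadjusted p was under 0.05 for 4 member rows, where 3.52% of all rows had such a p. For the reason given, nothing is read from these counts beside the shares of all rows.

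The sizes in this contrast differed between members. Tek had the largest, 0.65 (SE 0.129), which was a 1.57-fold higher level in siGFP than in untreated cells. Its unadjusted p was 0.00215 and its adjusted p 0.961 by limma. The choice of members shaped the unadjusted p, so nothing is read from it. Slc13a5 had 0.40 (SE 0.144), Vrtn 0.35 (SE 0.162) and Dnajc6 0.30 (SE 0.116). Kbtbd8 had −0.35 (SE 0.141), the Rnf213 rows −0.10 and −0.25, Car4 −0.10 and Bcl11a 0.05. Several of these sizes moved without 1 array. Without untreated replicate 1 Slc13a5 had 0.25, Kbtbd8 −0.20, Vrtn 0.50 and Bcl11a 0.15. Without untreated replicate 2 they had 0.55, −0.50, 0.20 and −0.05, so only Bcl11a changed its sign. Car4 had 0.00 without siGFP replicate 2 and −0.20 without siGFP replicate 1. The members therefore showed 3 arrangements: control groups that overlapped (Car4, Bcl11a), a siGFP level between the other 2 groups (Vrtn, Tek, Rnf213, Kbtbd8), and a siGFP level on the far side of untreated cells (Dnajc6, Slc13a5). The place of the Rnf213 row 10383214 rests on 0.1, the step of the deposited values, and its difference of −0.10 equals that of Car4. No member row passed in this contrast, so the arrangements only describe these arrays. The comparisons share arrays, so their values are set side by side and no relation between them is tested.

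**Figure D3:**
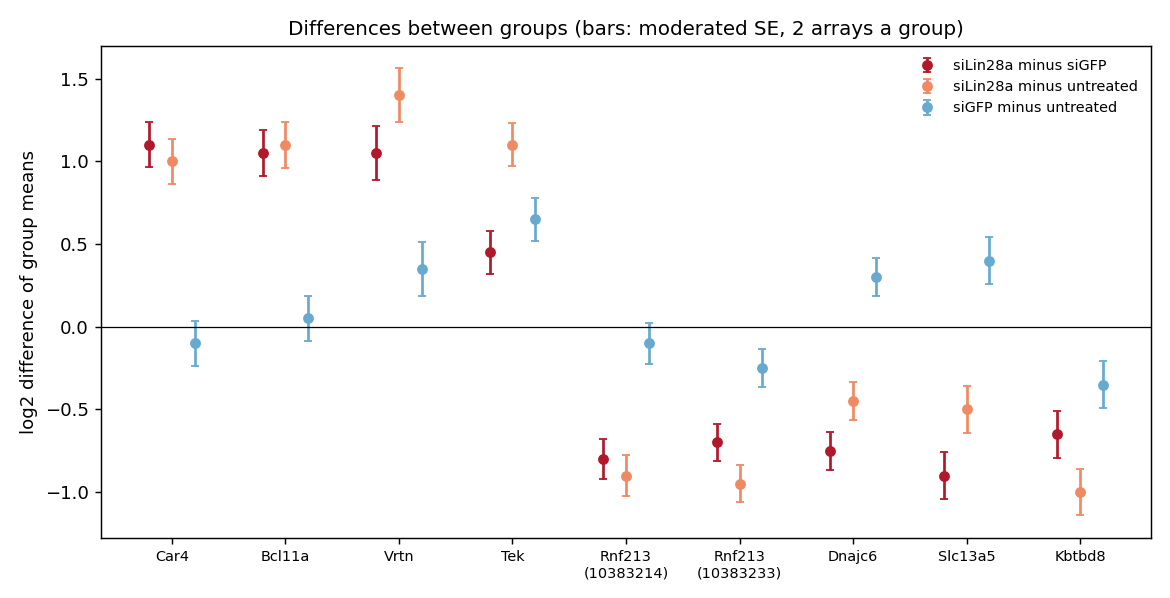
Log2 difference of group means for each member row, with siLin28a minus siGFP in dark red, siLin28a minus untreated in orange and siGFP minus untreated in blue, and bars of 1 moderated SE (2 arrays a group). Tek differs from untreated cells by 0.65 with siGFP alone, and for Dnajc6 and Slc13a5 the blue points lie above 0 while the red and orange ones lie below.

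The direction of the members between siLin28a and siGFP is fixed by their choice, and their values by replicate number show the spread in size. In replicate 1 and 2 the log2 difference was 0.9 and 1.3 for Car4, 1.0 and 1.1 for Bcl11a, 0.9 and 1.2 for Vrtn, and 0.4 and 0.5 for Tek. It was −0.9 and −0.7 for the Rnf213 row 10383214, −0.7 and −0.7 for the row 10383233, −0.8 and −0.7 for Dnajc6, −0.9 and −0.9 for Slc13a5, and −0.7 and −0.6 for Kbtbd8. Car4 had the widest spread between the numbers. The numbers are not shown to pair the arrays, so these spreads depend on the matching and members are not ranked by them.

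Rows with a pattern most like each member's were sought by Pearson's r over the 6 arrays, among 2068 rows that reached 6 in at least 1 array and had a range of at least 0.7. The arrays fall into 3 groups, so r mostly follows the group means and is given as a measure of likeness alone. Members that moved in the same direction were chosen for the same pattern. A high r between them follows from that choice, and nothing is read from it. For Tek the most alike were Plk2, a kinase of the stress response (r = 0.995), Efnb2, an ephrin ligand (0.982), and Syne2, a nuclear envelope protein (0.982). Plk2 had 8.4 and 8.3 in siLin28a, 7.8 and 7.7 in siGFP and 6.8 and 6.7 in untreated cells, the stepwise order of Tek. Car4 was most like Cdkn1c, an inhibitor of cyclin-dependent kinases (0.988), Bcl11a (0.972) and the lipoxygenase Alox15 (0.968). Cdkn1c had 7.3 and 7.4 in siLin28a, 6.9 and 6.7 in siGFP and 6.9 and 6.8 in untreated cells.

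Bcl11a was most like Pla2g7, a secreted phospholipase (0.982), the transcription factor Wt1 (0.982) and Vrtn (0.978). Vrtn was most like Pla2g7 (0.992), Lef1, a transcription factor of Wnt signalling (0.982), and Bcl11a (0.978). Pla2g7 had 6.7 and 6.8 in siLin28a, 6.1 and 6.0 in siGFP and 6.0 and 5.8 in untreated cells. Bcl11a was thus among the rows nearest to both Car4 and Vrtn, which follows from the choice of all 3 for the same pattern. Bcl11a and Vrtn also reached 6, the level asked of the rows searched, only in the siLin28a arrays.

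The Rnf213 row 10383214 was most like Jam2, a junctional adhesion molecule (0.994), the transcription factor Tbx3 (0.987) and Zbtb44 (0.986). The row 10383233 was most like Kbtbd8 (0.984), Rpe, an enzyme of the pentose phosphate pathway (0.984), and Tbx3 (0.984). Kbtbd8 was most like Rsbn1 (0.994), the RNA-binding protein gene Qk (0.988) and Rnf213 (0.984). Rsbn1 had 6.9 and 6.9 in siLin28a, 7.5 and 7.4 in siGFP and 7.9 and 7.6 in untreated cells. Dnajc6 was most like the proprotein convertase Pcsk6 (0.969), Zc3hav1 (0.954) and Pgap6 (0.952). Slc13a5 was most like Stard8 (0.962), Slc39a11, a zinc transporter (0.962), and Slit2, a secreted guidance protein (0.945). Slit2 had 5.1 and 5.0 in siLin28a, 5.8 and 6.0 in siGFP and 5.4 and 5.4 in untreated cells, the order of Slc13a5 with siGFP highest.

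The genes that work with each member were read from a list around it, with the brightest row for each gene. Over the 8 lists together, 249 of 258 genes were measured. None passed in the comparison of siLin28a with siGFP by limma, where 0.0% of all rows passed. Of the 249 genes 25 had both siLin28a arrays outside the 4 control arrays, against 8.68% of all rows. That share also stands beside the count of each list below. Most of the 25 genes cleared the nearest control array by only 0.1, the step of the deposited values. Of the 249 genes 88 were higher, 130 lower and 31 equal, with a median of −0.05. Over all rows 8969 were higher, 11605 lower and 2836 equal, with a median of 0.00. After a shift of the arrays to 1 median 59 list genes were higher and 161 lower, with repeated quantile normalization 116 and 124, and after cyclic loess 120 and 129. The counts over all rows turned to more higher than lower ones under the last 2 scalings (11544 against 11077 and 11802 against 11608). In 7 lists the member's own log2 difference was larger in size than that of any listed gene, and the exception was the list around Tek. The members were chosen by these same arrays and the listed genes were not, so nothing is read from this contrast.

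The list around Car4 holds carbonic anhydrases and bicarbonate transporters. Of 23 genes 12 were higher, 7 lower and 4 equal against siGFP, with a median of 0.05, and 3 lay outside the controls, all below them. The balance turned over after a shift of the arrays to 1 median, where 9 were higher and 11 lower. Car5b, a mitochondrial carbonic anhydrase, had 4.5 and 4.6 with siLin28a, against 5.0 and 5.0 with siGFP and 4.7 and 4.7 untreated. Car8, a relative without catalytic activity, had 5.9 and 5.9, against 6.5 and 6.2 with siGFP and 6.3 and 6.1 untreated. Of the 3 genes below the controls, all but Car8 cleared the nearest control array by only 0.1, the step of the deposited values. Car9, a hypoxia-induced surface enzyme, had a log2 difference of 0.45 with groups that overlapped. Most genes of the list, 16 of 23, had a mean under 6 over the arrays.

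The list around Bcl11a holds its relative Bcl11b, binding partners and the subunits of the chromatin complexes BAF and NuRD. Of 36 genes 14 were higher, 20 lower and 2 equal, with a median of −0.05, and 3 lay outside the controls, all below. The balance turned over with repeated quantile normalization, where 20 were higher and 15 lower, and after cyclic loess, where 21 were higher and 15 lower. Sirt1, a deacetylase, had 8.5 and 8.7 with siLin28a, against 9.1 and 9.1 with siGFP and 9.4 and 8.9 untreated, a log2 difference of −0.50 (SE 0.188) against siGFP. Of the 3 genes below the controls, all but Sirt1 cleared the nearest control array by only 0.1, the step of the deposited values. Mta1, a NuRD subunit, had 0.45 (SE 0.221) with groups that overlapped.

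The list around Vrtn holds genes of somite formation and vertebral patterning. Of 29 genes 14 were higher, 11 lower and 4 equal, with a median of 0.00, but 13 were higher and 15 lower after a shift of the arrays to 1 median. The siLin28a arrays lay above the controls for 5 genes and below for 1, which is 20.7% of the list against 8.68% of all rows. Of the 5 genes above, all but Dll3 cleared the nearest control array by only 0.1, the step of the deposited values. The gene below cleared it by more. The share of 20.7% therefore rests largely on single steps. Dll3, a Notch ligand of the presomitic mesoderm, had 5.8 and 5.7 with siLin28a, against 5.2 and 5.3 with siGFP and 5.3 and 5.4 untreated. Ripply1, a repressor active in somite formation, had 6.8 and 7.2, against 6.6 and 6.4 with siGFP and 6.5 and 6.7 untreated. Their log2 differences from siGFP were 0.50 each (SE 0.119 and 0.177), and 21 of the 29 genes had a mean under 6.

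The list around Tek holds angiopoietins and other endothelial genes. Of 27 genes 11 were higher, 13 lower and 3 equal, with a median of 0.00, and 3 lay outside the controls. Vegfa, a growth factor for endothelial cells, had 6.6 and 6.5 with siLin28a, against 7.2 and 6.9 with siGFP and 7.0 and 7.1 untreated, a log2 difference of −0.50 (SE 0.144). Angpt4, an angiopoietin, and Dok2, an adaptor that binds TEK, had 0.35 each with groups that overlapped.

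Because Tek marks endothelial cells, the 12 endothelial markers were read as a group. Their mean level was 5.48 and 5.44 in the siLin28a arrays, 5.46 and 5.48 in siGFP and 5.39 and 5.41 in untreated cells, and none of the 12 lay outside the controls in the siLin28a arrays. Cdh5, the endothelial cadherin, had 4.6 and 4.5 with siLin28a, against 4.5 and 4.7 with siGFP and 4.5 and 4.5 untreated. Tie1, the other receptor of the family, had 4.8 and 4.7, against 4.8 and 4.6 with siGFP and 4.5 and 4.6 untreated. The brightest was Pecam1, with a mean of 8.82 over the arrays, and the dimmest Emcn, with 2.60. Eng, a coreceptor for TGF-beta ligands, had 7.2 and 7.1 with siLin28a, against 7.2 and 7.1 with siGFP and 6.6 and 6.7 untreated, so both siRNA groups lay above untreated cells. The part of endothelial transcripts in the Tek values was not tested.

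Among other cell types, 10 measured blood markers had means between 4.71 and 4.87 over the 6 arrays, 12 feeder fibroblast markers between 4.64 and 4.83, and 12 primitive endoderm markers between 5.18 and 5.27. None of these markers lay outside the controls in the siLin28a arrays. Of the 10 measured neural markers 3 did, against 8.68% of all rows. Nes and Dcx lay above the controls (0.45 and 0.50 from siGFP) and Tubb3 below (−0.55). Nes and Dcx were dim, with means of 4.3 and 3.65 over the arrays. Nes cleared the nearest control array by only 0.1, the step of the deposited values. The mean of the 10 was between 5.24 and 5.34 in every array. The 14 ES cell markers had means of 10.08 and 10.25 in siLin28a, 10.36 and 10.60 in siGFP and 10.48 and 10.57 in untreated cells, and 6 of them lay below all 4 controls, against 5.03% of all rows. These were Nanog, Zfp42 and Tfcp2l1, with a log2 difference of −0.70 each from siGFP, Esrrb and Tdgf1, with −0.30 each, and Sall4, with −0.25. Esrrb, Tdgf1 and Sall4 cleared the nearest control array by only 0.1, the step of the deposited values. All 14 markers had a mean of at least 8.60, and of the 10542 rows with a mean of at least 6, 798 lay below the controls. The part of the marker levels in the members' values was not tested.

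The list around Rnf213 holds genes induced by interferon and E3 ligases of antiviral defence. Of 36 genes 13 were higher, 17 lower and 6 equal, with a median of 0.00, and 1 lay outside the controls (2.78%). That gene was Zc3hav1, an antiviral protein that binds viral RNA. It had 5.6 and 5.7 with siLin28a, against 6.3 and 6.3 with siGFP and 6.0 and 5.8 untreated, a log2 difference of −0.65 (SE 0.126) against siGFP. Mx2, an antiviral GTPase, had −0.50 (SE 0.210) with groups that overlapped. Of the list 24 genes had a mean under 6.

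The list around Dnajc6 holds clathrin, its adaptors and the uncoating machinery. Of 36 genes 7 were higher, 23 lower and 6 equal, with a median of −0.075. With repeated quantile normalization 15 were higher and 19 lower (median −0.0120), after cyclic loess 15 and 21, and after a shift of the arrays to 1 median 2 and 29 (median −0.125). The gene outside the controls (1 gene, 2.78%) lay above them: Dnm3, a dynamin, with a log2 difference of 0.30. The clathrin light chain Cltb, the endocytic adaptor Eps15 and the scaffold Itsn2 had −0.35 each, with groups that overlapped. Cltb had 9.0 and 9.3 with siLin28a, against 9.3 and 9.7 with siGFP and 9.6 and 9.6 untreated.

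The list around Slc13a5 holds other citrate carriers and enzymes that make or use citrate. Of 27 genes 10 were higher, 15 lower and 2 equal, with a median of −0.05, and 2 lay outside the controls (7.41%). Slc25a11, the mitochondrial oxoglutarate carrier, had 8.6 and 8.6 with siLin28a, against 8.9 and 9.1 with siGFP and 8.8 and 8.7 untreated, a log2 difference of −0.40 (SE 0.126). Slc25a1, the mitochondrial citrate carrier, had −0.30 (SE 0.160) with groups that overlapped.

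The list around Kbtbd8 holds CUL3, the neddylation enzymes that activate it, related adaptors and substrates. Of 35 genes 7 were higher, 24 lower and 4 equal, with a median of −0.10. With repeated quantile normalization 12 were higher and 21 lower (median −0.050), after cyclic loess 14 and 21, and after a shift of the arrays to 1 median 1 and 28 (median −0.15). The siLin28a arrays lay below the controls for 6 of them (17.1%, against 5.03% of all rows) and above for 0. Most of these genes cleared the nearest control array by only 0.1, the step of the deposited values. Among the 10542 rows left without means under 6, 798 lay below the controls, and 6 list genes had such a mean. Dcun1d1, which helps attach NEDD8 to cullins, had 6.5 and 6.6 with siLin28a, against 6.8 and 7.2 with siGFP and 7.0 and 6.8 untreated. Kbtbd11, a relative of Kbtbd8, had 5.8 and 5.9, against 6.2 and 6.3 with siGFP and 5.8 and 5.5 untreated, so that its siLin28a and untreated arrays overlapped.

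**Figure D4:**
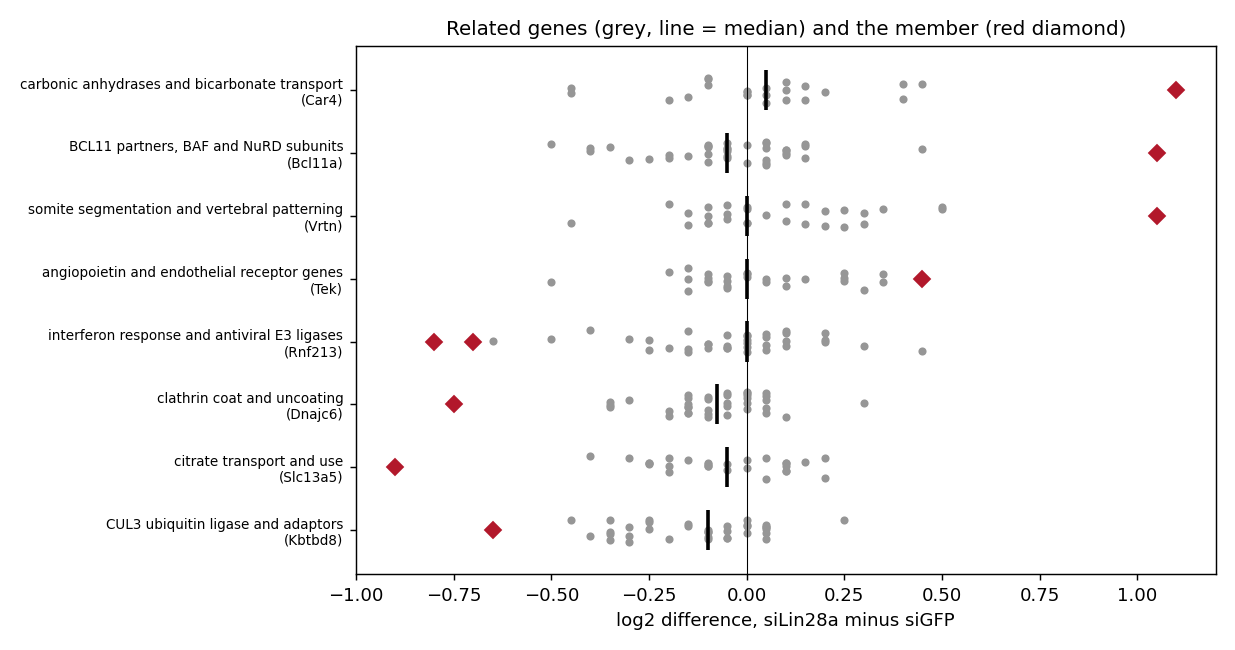
Log2 difference between siLin28a and siGFP for each measured gene of the 8 lists (grey points, black line for the median) and for the member the list was built around (red diamonds, 2 for Rnf213). The list medians lie between −0.10 and 0.05 and the members between −0.90 and 1.10. The members were chosen by these same arrays, so this contrast carries no test.

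In the genome, 4 of the 8 members, Bcl11a, Slc13a5, Car4 and Rnf213, lie on chromosome 11 in RefSeq, which holds 7.88% of the 18563 measured genes with a chromosome. Tek and Dnajc6 lie on chromosome 4, as Lin28a does, Kbtbd8 on chromosome 6 and Vrtn on chromosome 12. The nearest protein-coding genes on either side, added after the members' values were seen, gave 16 neighbours, of which 5 (31.2%) had siLin28a arrays outside the controls, against 8.68% of all rows. Both neighbours of Dnajc6 were among them. Ak4, an adenylate kinase, had 7.9 and 8.5 with siLin28a, against 8.6 and 8.9 with siGFP and 8.6 and 8.8 untreated. Leprot, a membrane traffic protein, had 7.6 and 7.6, against 7.9 and 8.0 with siGFP and 7.8 and 7.7 untreated. The others were Usp32 beside Car4, with a log2 difference of −0.40 from siGFP, Slc26a11 beside Rnf213 (−0.25) and Lrig1 beside Kbtbd8 (0.10). Usp32 and Lrig1 were on the other side of the controls from their member. Ak4, Leprot, Slc26a11 and Lrig1 cleared the nearest control array by only 0.1, the step of the deposited values, and Usp32 by more. The share of 31.2% therefore rests largely on single steps, and nothing is read from it. The neighbours of Bcl11a, Papolg and Fancl, had −0.20 and 0.10, and those of Vrtn, Abcd4 and Syndig1l, had 0.05 and 0.00. The members were chosen for their difference and the neighbours were not, so their sizes are not compared. No neighbour differed from siGFP by more than 0.55.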

How the data were processed

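Messenger RNA was measured on 6 Affymetrix arrays. Per the submitters' processing notes, the authors made the deposited log2 values with Affymetrix Expression Console and RMA; the sources used here state no version and no genome build. The log2 scale was read from the deposited values, which run from 0.2 to 13.7. RMA on a quantile scale can hide shifts shared by most genes. Rows were named by the array's platform annotation, and 21789 of 35556 rows carry 1 symbol. Groups came from sample titles. The 23410 rows with a gene were fitted with limma 3.58.1 under R 4.3.3 (linear model and moderated two-sided test) on all arrays, with 3 residual and 3.19 prior degrees of freedom, Benjamini-Hochberg adjustment over all rows and a threshold of 0.05. The script was tested on simulated data. An exact permutation test of 2 against 2 arrays cannot pass 0.05, so none was run. Errors are limma's moderated SE.

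The members and lists were chosen with earlier results of these data known. Named besides the members are Lin28a, the 2 genes of each list with the largest log2 difference between siLin28a and siGFP (ties included), list genes outside the controls by at least 0.5, and for each member row the 3 most alike rows, without olfactory and vomeronasal receptors, predicted genes or Rik clones. Markers and neighbours are named where a result turns on them, chosen after their values were seen. Alternatives were other scalings, variance models, row filters, a replicate block, fits of 4 arrays and fits without 1 array.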

Additional observations from a re-analysis of the deposited data

How the results depend on the processing

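The direction of the members between siLin28a and the controls is fixed by their choice, and changes to the variance model leave their log2 differences as they are, so only their sizes are given. Without 1 array, those against siGFP were between 1.00 and 1.20 for Car4, 0.95 and 1.15 for Bcl11a, 0.90 and 1.20 for Vrtn, 0.35 and 0.55 for Tek, −0.90 and −0.70 over both Rnf213 rows, −0.80 and −0.70 for Dnajc6, −0.95 and −0.85 for Slc13a5, and −0.70 and −0.60 for Kbtbd8. Other scalings went beyond these ranges for some members. Dnajc6 had −0.674 and Kbtbd8 −0.579 after cyclic loess. The Rnf213 row 10383233 had −0.608 and Slc13a5 −0.842 with repeated quantile normalization. Car4, Bcl11a, Vrtn, Tek and the Rnf213 row 10383214 stayed within them. Between siGFP and untreated cells Bcl11a turned from 0.05 to −0.05 without untreated replicate 2; it was between −0.05 and 0.15 without 1 array. The call count between siLin28a and siGFP, 0, was 1 after cyclic loess and 1 with a robust prior. Between siLin28a and untreated cells it was 5 after cyclic loess and 7 with a robust prior, and between siGFP and untreated cells it stayed at 0. The count of rows with siLin28a arrays outside all controls, 2031, was 3447 after cyclic loess and 990 without rows of a mean under 6. That filter leaves 10542 rows, and the cause of the other shifts was not tested. With the replicate block, and in fits of the 4 arrays of 2 groups, the call counts stayed at 0. Deviations of same-numbered arrays correlated at 0.357 between siLin28a and siGFP, 0.154 between siGFP and untreated and −0.0352 between siLin28a and untreated cells, so the numbers are not shown to pair the arrays. Without a shared prior, an alternative chosen after seeing the data, the counts were also 0. The 2 arrays of each group limit what could be called.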
